A study of Mus musculus with 3 samples.

Results

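The Tfap2 genes encode the AP-2 transcription factors, and TFAP2A peaks at the 5 mouse paralogs were examined here in melanocytes. The genes were Tfap2a, Tfap2b, Tfap2c, Tfap2d and Tfap2e, written Tcfap2a to Tcfap2e in the gene annotation used and below. A peak was taken as a member when its summit, the position of highest signal in the peak, lay in the body of a paralog or within 100 kb of it. This gave 8 of the 18528 peaks of replicate 1 and 14 of the 21459 peaks of replicate 2. Overlapping peaks of the replicates were joined, which left 14 regions, of which 8 were in both replicates, 6 were in replicate 2 only and 0 were in replicate 1 only.

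TFAP2A-bound chromatin was precipitated from melan-a cells with the mouse monoclonal antibody 3B5 and sequenced (ChIP-seq). melan-a is an immortalised melanocyte line from normal embryonic mouse skin, homozygous for the Cdkn2a tm1RDp allele, which both ChIP replicates and the input carried. The cells received no treatment and grew in medium with serum, a phorbol ester and cholera toxin, so the results describe 1 cell line in culture. The series held 3 samples, 2 ChIP replicates and 1 input, whose own values were not used here. The sources do not say whether the replicates came from separate cultures, so the SDs below may be technical. RNA was not measured in these 3 samples, so the expression of the paralogs was not analysed here.

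AP-2 proteins bind DNA as dimers through a helix-span-helix domain near the C terminus and recognise GC-rich palindromes built on GCC, a short spacer and GGC. Tfap2a and Tfap2b act in the neural crest, the embryonic source of melanocytes, and Tfap2c is best known from trophoblast, germ cells and mammary epithelium. Tfap2d is best known from the developing midbrain and retina. Tfap2e is best known from the olfactory bulb. A member peak of Tcfap2a is called self-binding here, and a member peak of another paralog is called cross-binding. Both terms rest on the 100 kb window only, and which gene a peak acts on was not tested. In the coding sequences of the annotation, the TFAP2A protein was 77.1% identical to TFAP2B over 428 aligned residues, 64.7% to TFAP2C over 428, 64.7% to TFAP2E over 417 and 59.0% to TFAP2D over 398. Whether the antibody also bound a paralog protein was not tested.

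The sequences under 7 regions are shown because they carry the contrast between Tcfap2a, Tcfap2b, Tcfap2c and Tcfap2e. All are on the plus strand of mouse build mm9, and distances are from the outermost TSS. Each runs 50 bp to each side of the summit, except at the Tcfap2a promoter, where 30 bp are given. Capitals mark the TFAP2 consensus GCCNNNGG on either strand, with overlapping matches joined, and in the first and second sequence they mark the AP-1 consensus TGANTCA instead, since those windows held no TFAP2 match.
Tcfap2a, 82.6 kb downstream of the TSS (replicate 1 summit, chr13:40746532-40746632): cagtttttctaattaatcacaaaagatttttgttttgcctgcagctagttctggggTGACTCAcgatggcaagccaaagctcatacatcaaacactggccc
Tcfap2a, 74.2 kb downstream (replicate 1 summit, chr13:40754991-40755091): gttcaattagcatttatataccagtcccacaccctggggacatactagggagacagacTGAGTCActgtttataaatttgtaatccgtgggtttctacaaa
Tcfap2a, 38.7 kb downstream (replicate 2 summit, chr13:40790426-40790526): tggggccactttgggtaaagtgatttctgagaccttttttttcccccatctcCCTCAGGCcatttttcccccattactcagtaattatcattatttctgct
Tcfap2a, promoter (replicate 2 peak, chr13:40829877-40829906): acccCCTCGGGCtgcagcGCCCTGGGagtt
Tcfap2b, 2.5 kb upstream (replicate 2 only, chr1:19196422-19196522): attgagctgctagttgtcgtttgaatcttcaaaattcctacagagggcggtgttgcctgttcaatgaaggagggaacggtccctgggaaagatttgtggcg
Tcfap2c, 91.1 kb downstream (replicate 1 summit, chr2:172466160-172466260): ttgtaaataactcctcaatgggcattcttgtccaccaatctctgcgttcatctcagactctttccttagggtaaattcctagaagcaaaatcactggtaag
Tcfap2e, 23.9 kb downstream (replicate 2 summit, chr4:126389485-126389585): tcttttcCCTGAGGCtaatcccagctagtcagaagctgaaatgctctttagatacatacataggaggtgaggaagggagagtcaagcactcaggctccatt

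Of the 5 genes, Tcfap2a itself had the most peaks in each replicate. Its peaks were 62.5% of the member peaks in replicate 1 (5 of 8) and 42.9% in replicate 2 (6 of 14), so cross-binding peaks were the larger part in replicate 2. That did not hold with lists of the same length, where Tcfap2a had 5 of the 10 replicate 2 peaks, or in the upper 50% by fold enrichment, where it had 3 of 6. It did hold with a window of 50 kb (2 of 9 at Tcfap2a) and of 200 kb (6 of 19). In replicate 1 Tcfap2a had 2 of 4 with 50 kb and 6 of 11 with 200 kb. Tcfap2a had 5 summits in replicate 1 and 6 in replicate 2, Tcfap2e had 2 and 3, and Tcfap2c had 1 in each. Tcfap2b had 0 and 3, and Tcfap2d had 0 and 4. Tcfap2d and Tcfap2b are neighbours on chromosome 1 with 42567 bp between them, and the 3 summits of Tcfap2b were also within 100 kb of Tcfap2d, so these counts are not independent. In all, 3 of 5 paralogs had a summit in replicate 1 and 5 of 5 in replicate 2, where 74.2% and 76.8% of the 22367 protein-coding genes had one. A summit shared by both replicates lay at 3 of 5 paralogs and at 71.7% of protein-coding genes. The share of paralogs with a peak nearby was thus below the background in replicate 1, above it in replicate 2 and below it for shared summits, and no test was made on 5 genes.

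**Figure D1:**
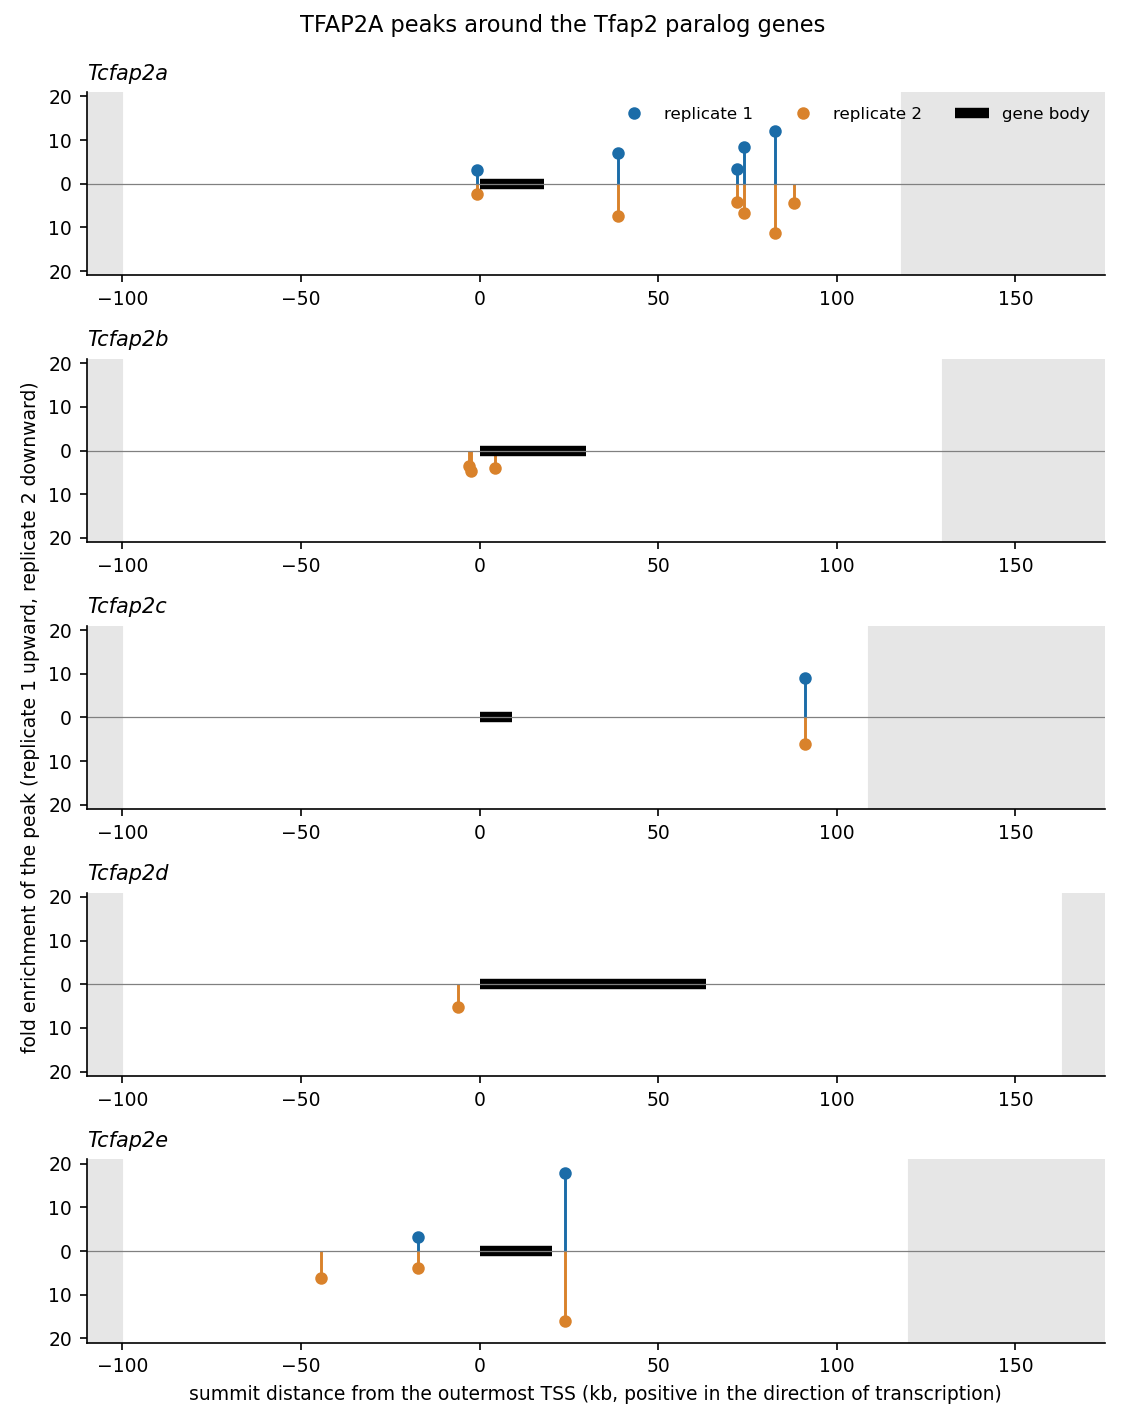
TFAP2A peaks around the 5 paralogs, each drawn under the paralog nearest to it. The x axis is the distance of the summit from the outermost TSS in kb, stems give the fold enrichment of each peak (replicate 1 upward, replicate 2 downward), black bars are gene bodies and grey areas lie outside the 100 kb window. Tcfap2a has 5 regions in both replicates, and Tcfap2b and Tcfap2d have peaks in replicate 2 only.

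Windows differed in length with the genes, so summits were also counted per Mb of window. Tcfap2a had 22.9 (replicate 1) and 27.5 (replicate 2) summits per Mb, which averaged 25.2 ± 3.24 (SD, n = 2). Tcfap2e had 9.08 and 13.6, a mean of 11.4 ± 3.21, and Tcfap2c had 4.78 in both. Tcfap2d had 0 and 15.2, and Tcfap2b had 0 and 13.1, so the spread between replicates exceeded the mean at both genes. The replicate values of Tcfap2a lay above those of each other paralog. With a window of 50 kb this order did not hold, since Tcfap2a had 16.9 summits per Mb in replicate 2 against 24.95 for Tcfap2e, 24.5 for Tcfap2d and 23.1 for Tcfap2b.

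Over all protein-coding genes the median density was 9.18 summits per Mb in replicate 1 and 9.83 in replicate 2. Tcfap2a exceeded 82.0% of genes in replicate 1 and 84.6% in replicate 2, and Tcfap2e, 49.5% and 57.5%. Tcfap2c exceeded 36.8% and 32.8%. Tcfap2b and Tcfap2d shared the lowest value, 0, in replicate 1, and exceeded 55.9% and 64.4% of genes in replicate 2. Tcfap2a thus sat in the upper part of the distribution, and the other 4 were spread from its lower end to just above its middle.

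**Figure D2:**
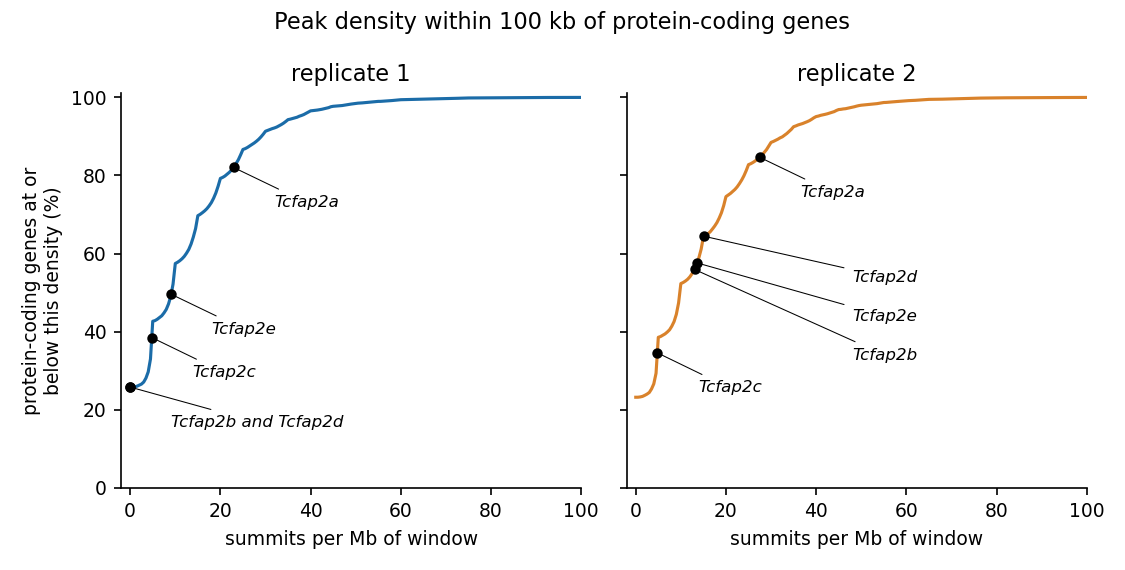
Peak density within 100 kb of protein-coding genes, replicate 1 on the left and replicate 2 on the right. The x axis is summits per Mb of window, the y axis is the percent of 22367 genes at or below that density, and black points mark the paralogs. Tcfap2a lies at 22.9 and 27.5 summits per Mb, to the right of the other paralogs in both panels.

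Tcfap2a (ENSMUSG00000021359.8, chromosome 13 from 40811044 to 40829192, minus strand) had no summit in its body. Its peaks formed a promoter region and a group downstream of the gene. The promoter region spanned 40829739 to 40830056 (replicate 1) or 40829762 to 40830022 (replicate 2), with summits 662 bp and 705 bp upstream of the outermost TSS. Its fold enrichment over background was 3.13 (replicate 1) and 2.40 (replicate 2), averaging 2.76 ± 0.517 (SD, n = 2), the lowest of the 8 shared regions. Only 7.35% of replicate 1 peaks and 0.391% of replicate 2 peaks had a lower fold, whereas 33.3% and 2.87% had a lower -log10 p. The summit fell in an exon of Gm16989, a lincRNA annotated on the plus strand. When the start sites of RefSeq were placed on mm9 by exact sequence match, 1 start of Tfap2a lay 1097 bp upstream of the outermost TSS of the annotation, and both summits were between the starts, 435 bp and 392 bp inside the longer gene model.

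The promoter region held TFAP2 sites in either summit window. Counted along the plus strand, as for all sites below, CCTCGGGC and GCCCTGGG were centred at -12.5 bp and 1.5 bp from the replicate 2 summit, and at 30.5 bp and 44.5 bp from the replicate 1 summit. A peak from 5 kb upstream to 1 kb downstream of an annotated TSS, the proximal window of the study's methods, was present at Tcfap2a in both replicates. Among the other paralogs it was present only at Tcfap2b, and only in replicate 2. That was 1 of 5 paralogs in replicate 1 and 2 of 5 in replicate 2, where 18.6% and 20.9% of protein-coding genes had one. Measured from the start that RefSeq gives for Tfap2b, no summit of that gene fell in the proximal window. A proximal peak shared by the replicates was at 1 of 5 paralogs and at 17% of protein-coding genes.

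The downstream group of Tcfap2a held 5 regions, of which 4 were in both replicates, and all were intergenic. For all 5 the nearest protein-coding TSS was that of Gm9979, a gene model between them and Tcfap2a, so the promoter region was the only one of the 6 whose nearest protein-coding TSS was that of Tcfap2a. The strongest spanned 40744896 to 40746950 (replicate 1) or 40744884 to 40746904 (replicate 2), 82.6 kb from the TSS. Its fold enrichment was 12.0 and 11.2, a mean of 11.6 ± 0.562, above 89.7% and 88.0% of the peaks of the respective list. At 2055 bp and 2021 bp it was wider than 99.9% and 99.95% of those peaks. It held 5 TFAP2 sites, the nearest of which, GCCCCGGGC, was centred 132 bp and 122 bp from the summit. The summit itself had an AP-1 site, TGACTCA, centred 9 bp after the replicate 1 summit and 1 bp before the replicate 2 summit. AP-1 is the family of FOS and JUN dimers.

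A narrower region 74.2 kb downstream of the TSS, from 40754874 to 40755207 in replicate 1, had fold enrichments of 8.51 and 6.64. Its mean was 7.57 ± 1.32. The peak held no TFAP2 site, and an AP-1 site, TGAGTCA, was centred 11 bp and 9 bp from its summits. Counted within 50 bp of the summit, an AP-1 site was in 2 of 8 and 2 of 14 member peaks, all in these regions, and in 8.62% and 7.70% of the whole lists.

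The other shared regions downstream of Tcfap2a had TFAP2 sites near their summits. The region 38.7 kb from the TSS, from 40790132 to 40790701 in replicate 1, had fold enrichments of 6.99 and 7.45, a mean of 7.22 ± 0.326, and the site CCTCAGGC centred 19.5 bp before the replicate 1 summit and 5.5 bp after the replicate 2 summit. The region 72.1 kb from the TSS, from 40756884 to 40757190, had 3.32 and 4.21 and the site CCCGAGGC. The region found in replicate 2 only, from 40741052 to 40741291 and 88.1 kb from the TSS, had 4.37 and held the full palindrome GCCCCTGGC centred 9 bp from its summit.

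Cross-binding was strongest at Tcfap2e (ENSMUSG00000042477.7, chromosome 4 from 126393250 to 126413484, minus strand). A region spanning 126389214 to 126389970 (replicate 1) or 126389306 to 126389933 (replicate 2) lay between genes. Its summits were 3692 bp and 3715 bp past the 3′ end of Tcfap2e and 23.9 kb from the TSS. Its fold enrichment of 17.9 and 16.0 was the highest of all member peaks, a mean of 17.0 ± 1.35, and exceeded 96.4% and 95.8% of the respective lists. The TFAP2 site CCTGAGGC lay 62.5 bp before the replicate 1 summit and 39.5 bp before the replicate 2 summit, and the full palindrome GCCTGAGGC lay 159 bp and 182 bp after them. No protein-coding TSS was nearer to it than that of Tcfap2e.

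The remaining peaks near Tcfap2e were closer to other genes. A shared region from 126430472 to 126430887 in replicate 1, with fold enrichments of 3.24 and 3.86, had its summits at the start of Ncdn, 11 bp upstream of one annotated TSS in replicate 1 and 5 bp downstream of another in replicate 2. Ncdn encodes the neuronal protein neurochondrin. The region was 17.2 kb upstream of Tcfap2e. A peak found in replicate 2 only, from 126457688 to 126457944, had 6.06 and lay in an intron of AU040320, with the site GCCTCTGG 8.5 bp before the summit. Neither region was within 5 kb of the single annotated TSS of Tcfap2e, although 16 TFAP2 sites lay within 1 kb of that TSS.

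Tcfap2c (ENSMUSG00000028640.5, chromosome 2 from 172375093 to 172384122, plus strand) had 1 region, near the edge of the window. It spanned 172465972 to 172466435 (replicate 1) or 172466042 to 172466374 (replicate 2), with summits 82088 bp and 82092 bp past the 3′ end of the gene. Its fold enrichment was 9.07 and 6.03, a mean of 7.55 ± 2.15, the largest SD among the shared regions. The summits were 4 bp apart, and the peak held no match to GCCNNNGG. No summit lay in Tcfap2c or within 50 kb of it in either replicate.

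At Tcfap2b (ENSMUSG00000025927.6, chromosome 1 from 19198995 to 19228815, plus strand) all 3 peaks were weak and came from replicate 2. A pair upstream, from 19195859 to 19196161 and from 19196310 to 19196550, had its summits 2992 bp and 2523 bp before the outermost TSS and fold enrichments of 3.47 and 4.69. The third, from 19203170 to 19203586, lay in an intron 1195 bp after an internal TSS, the start that RefSeq gives for Tfap2b, and had 3.99. None had a TFAP2 site within 50 bp of the summit, and the intronic peak held GCCCCGGGGC centred 75.5 bp away. Their -log10 p ran from 6.46 to 8.81, and 5.12% of replicate 2 peaks had a lower value than the strongest of them. By fold enrichment 31.5% did.

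At Tcfap2d (ENSMUSG00000042596.7, chromosome 1 from 19093103 to 19156427, plus strand) the nearest peak was likewise in replicate 2 only. It lay upstream of the gene with a fold enrichment of 5.13, above 39.7% of the replicate 2 list, and 3 TFAP2 sites stood within 50 bp of its summit, the most of any member window. The nearest shared summit was 761219 bp from the TSS of Tcfap2b and 867111 bp from that of Tcfap2d, and for only 4.77% and 3.95% of protein-coding genes was it farther. In replicate 1 no summit lay within 500 kb of either gene. When replicate 2 was cut to the length of replicate 1 by -log10 p, its summits fell from 3 to 0 at Tcfap2b and from 4 to 1 at Tcfap2d, and from 14 to 10 over the family.

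All 8 member peaks of replicate 1 shared 1 bp or more with a replicate 2 peak (exact 95% binomial interval 63.1 to 100%), against 87.1% of the whole list. Of the 14 in replicate 2, 8 overlapped a replicate 1 peak, or 57.1% (28.9 to 82.3), against 76% of the whole list. The 6 without a partner had fold enrichments from 3.47 to 6.06, a range in which 65.6% of all replicate 2 peaks overlapped replicate 1. By -log10 p, from 6.46 to 15.6, the share was 49.5%. Read depth is unknown here, and its part in the absence of these peaks from replicate 1 was not tested.

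Enrichment at the shared regions was set side by side for the replicates. The ratio of replicate 2 to replicate 1 ran from 0.665 at Tcfap2c to 1.27 at the region 72.1 kb from the TSS of Tcfap2a. Summits lay from 2 bp to 43 bp apart. The shared members had median fold enrichments of 7.75 and 6.33, and the median of all member peaks in replicate 2 was 4.91, beside 5.56 and 5.75 for the whole lists. By fold enrichment the members ranged from near the weakest peaks of the lists (the Tcfap2a promoter) to the upper 5% (Tcfap2e).

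**Figure D3:**
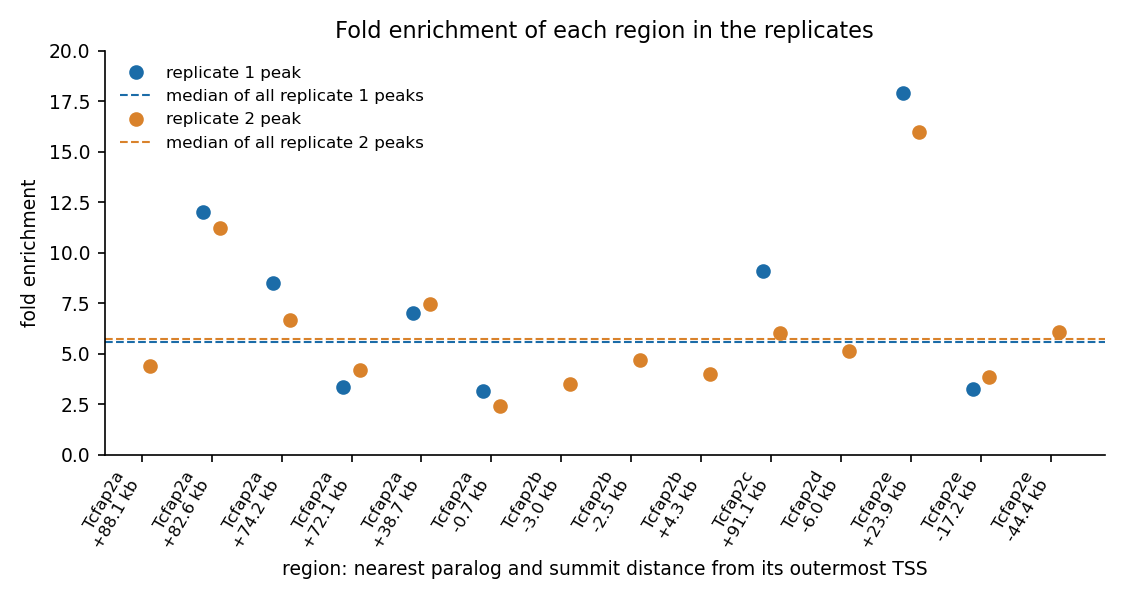
Fold enrichment of each of the 14 regions, labelled by the nearest paralog and the distance of the summit from its outermost TSS. Points are single peaks of replicate 1 or 2, and dashed lines are the medians of the whole lists (5.56 and 5.75). The region near the 3′ end of Tcfap2e is the highest in both replicates at 17.9 and 16.0, and the 6 regions with 1 point were found in replicate 2 only.

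The consensus was next set beside the peaks, since the rule for members did not use sequence. In replicate 1, 3 of 8 member peaks had a TFAP2 site no farther than 50 bp from the summit (37.5%, exact 95% interval 8.52 to 75.5), and in replicate 2 it was 8 of 14 (57.1%, 28.9 to 82.3). The whole lists had 55.4% and 58.4%. Equally long windows 400 bp away on either side held a site in 2 of 16 and 2 of 28 cases, against 15.0% and 15.4% for the whole lists. In replicate 1 the 3 peaks with a site were all at Tcfap2a. The GCCNNNGG counts overlap those of the full palindrome GCCNNNGGC, which was in 0 and 2 member peaks and in 18.5% and 19.4% of the lists. None of the member windows held TEAD (GGAATG), SOX (ACAANGG), M-box (TCATGTG) or E-box (CACGTG) strings, which were in 10.6%, 7.04%, 1.94% and 1.69% of replicate 1 peaks.

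The paralogs differed in how many consensus sites their sequence held. The 100 kb windows held 313 sites at Tcfap2a (1.43 per kb), 435 at Tcfap2c (2.08 per kb), 334 at Tcfap2e (1.52 per kb), 213 at Tcfap2d (0.809 per kb) and 182 at Tcfap2b (0.792 per kb), against 1.07 per kb on the assembled chromosomes. Tcfap2b and Tcfap2d, which had no peak in replicate 1, were thus below the chromosomes in site density, and the other 3 were above. The windows of Tcfap2b and Tcfap2d overlap, so their counts share sites. Tcfap2c, with the most sites, had 0 of 435 inside a peak in either replicate. Its window held 1 peak per replicate, 464 bp and 333 bp wide, so few sites could lie inside one. At Tcfap2a 12 sites in replicate 1 (3.83%, exact 95% interval 2.00 to 6.60) and 13 in replicate 2 (4.15%, 2.23 to 6.998) were inside a peak, and 5 of these were in the wide region 82.6 kb downstream. At Tcfap2e there were 6 in each replicate (1.80%, 0.662 to 3.87). These intervals take sites as independent, which sites in the same peak are not, so they cannot serve as a comparison with the chromosomes. Over the assembled chromosomes the share was 1.21% and 1.29%. Tcfap2b had 0 and 1 site inside a peak (0.549% in replicate 2). Tcfap2d had 0 and 4, and its 1.88% in replicate 2 was above the chromosomes.

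Within 1 kb of the outermost TSS the paralogs also differed in sequence. Tcfap2e had 16 sites, Tcfap2a 10 and Tcfap2c 8, where the median of protein-coding genes was 5. Tcfap2b had 1 and Tcfap2d had 0. GC content in the same windows was 60.8% at Tcfap2e, 55.0% at Tcfap2a, 61.7% at Tcfap2c, 39.5% at Tcfap2b and 43.1% at Tcfap2d, with a median of 51.1% over all genes. The RefSeq start of Tfap2b lay 3140 bp downstream of the outermost TSS, so these windows do not describe the sequence around it. A RefSeq start of Tfap2d, 1111 bp downstream, and one of Tfap2a, 1097 bp upstream, were also outside them. Whether site number or GC content had a part in the presence of a proximal peak was not tested.

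**Figure D4:**
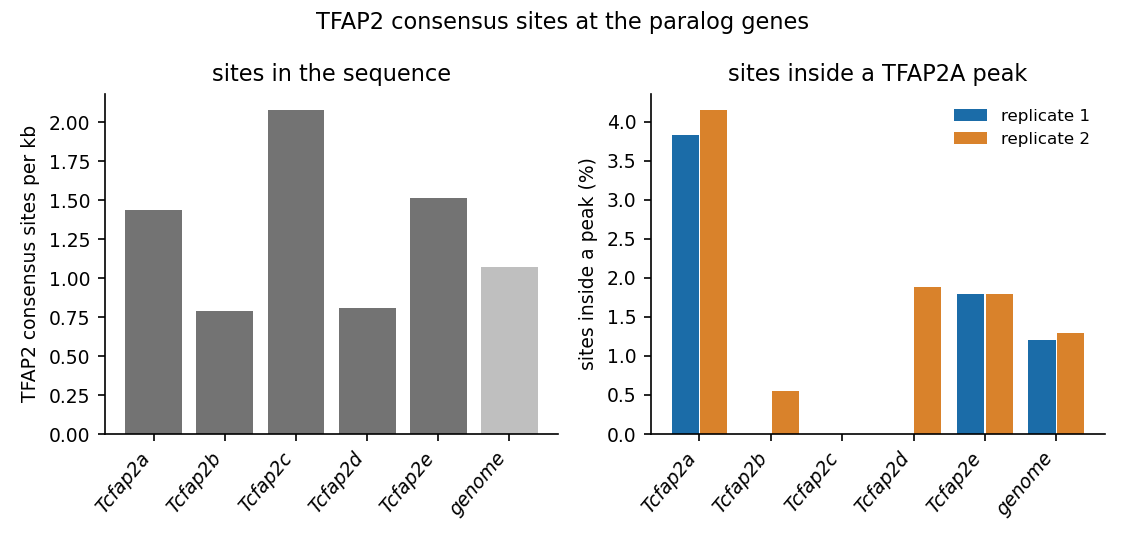
TFAP2 consensus sites (GCCNNNGG, either strand) in the 100 kb window of each paralog and on the assembled chromosomes (genome). The left bars give sites per kb of sequence, and the right bars give the percent of those sites inside a peak of replicate 1 or 2. Tcfap2c has the highest bar on the left, 2.08 per kb, and no sites inside a peak, with only 1 peak per replicate in its window. Tcfap2a has 3.83% and 4.15%.

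How far from each gene the peaks lay differed as well. Within 50 kb of the body Tcfap2a had 2 summits in each replicate, Tcfap2e had 2 and 3, and Tcfap2c had 0 and 0. Tcfap2b had 0 and 3 within 10 kb, and no more out to 100 kb. At 200 kb Tcfap2a had 6 in each replicate, while Tcfap2c had 2 and 5.

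**Figure D5:**
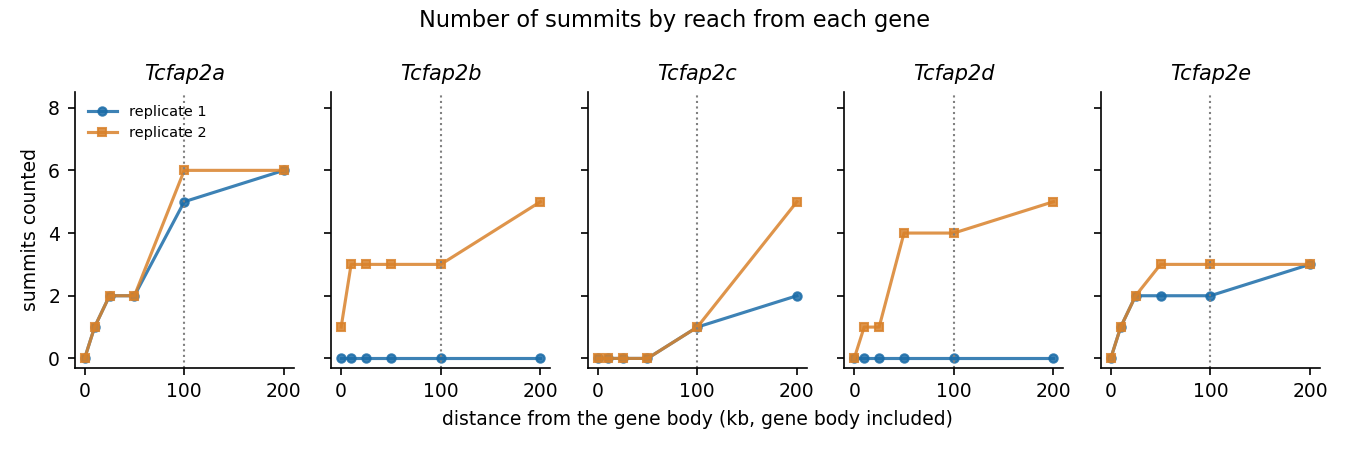
Number of summits counted at each paralog as the window widens from the gene body to 200 kb on each side (x axis in kb). Circles are replicate 1, squares are replicate 2, and the dotted line marks the 100 kb used for the counts in the text. Tcfap2a rises from 2 summits in each replicate at 50 kb to 5 and 6 at 100 kb, and Tcfap2b and Tcfap2d stay at 0 in replicate 1.

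Genes of proteins known to work with or against AP-2 factors were examined with the same windows. From a list of such genes 9 are described, for coactivators (Cited1, Cited2, Cited4, Ep300, Crebbp, Yeats4), the inhibitors Kctd1 and Kctd15, and the protein partner Wwox. These 9 all had a summit in each replicate, where 74.2% and 76.8% of protein-coding genes had one, and their median counts were 3 and 4, against 2 and 2 for all protein-coding genes. Per Mb of window their medians were 11.2 and 12.1, against 9.18 and 9.83. A proximal peak lay at 2 of 9 in replicate 1 and 4 of 9 in replicate 2, where 18.6% and 20.9% of protein-coding genes had one. Kctd15, whose protein binds and inhibits TFAP2A, had 7 and 8 summits, of which 2 in each were proximal, and Kctd1 had 11 and 18, of which 2 and 3 were proximal. Cited1 and Ep300 had 1 proximal peak each, in replicate 2 only. At the low end Cited4 and Yeats4 had 1 summit in each replicate and Wwox had 1 and 2. Per Mb these genes were below the median of all protein-coding genes.

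Paralogs in other transcription factor families of melanocytes also differed in their counts. Of the SOXE genes, Sox10 had 17 and 18 summits, Sox8 had 2 and 4, and Sox9 had 0 and 1. Of the MiT/TFE genes, Mitf had 12 and 14, Tfeb had 5 and 9, Tfe3 had 3 and 4, and Tfec had 0 in both. Tcfap2a, with 5 and 6, lay below Sox10 and Mitf, which direct the melanocyte lineage, and at or below Tfeb. The windows of Mitf and Tfeb were longer than that of Tcfap2a, at 414301 bp and 255390 bp against 218149 bp. Per Mb, Tfeb had 19.6 and 35.2 summits and Mitf 28.96 and 33.8, so Tcfap2a, at 22.9 and 27.5, was between the replicate values of Tfeb.

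The genes most like each paralog were named by their summit counts and highest fold enrichment in both replicates, 4 values in all from 2 libraries. For Tcfap2a these were C230062I16Rik, Zfp14 and Zfp566, neighbours on chromosome 7 with overlapping windows and the same values, so they count as a single match, with 5 and 6 summits and highest folds of 12.2 and 10.9. For Tcfap2c they were 9330182L06Rik, Ppp1r8 and Olfr850, each with 1 summit in each replicate. For Tcfap2e they were Gm16415, Slfn3 and Slfn4, with 2 and 3 summits and highest folds from 15.0 to 17.2, of which Slfn3 and Slfn4 are likewise neighbours with the same values. Tcfap2b and Tcfap2d had no peak in replicate 1 and were not matched.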

How the data were processed

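ChIP-seq peak lists of 2 TFAP2A ChIP replicates from melan-a cells were used. The submitters' processing notes name BWA, MACS 1.4.2 and the build mm9. The lists carry q-values and summit offsets in the layout that later MACS versions write, so the version behind them, and with it the exact definition of the fold enrichment and q-value, is uncertain. The authors deposited 1 list per replicate, not pooled, giving for each peak its summit offset, its fold enrichment (the ratio of ChIP to background) and the -log10 of its p-value and q-value. The deposited score, which is 10 times the -log10 p without its decimals, was not used. The lowest deposited -log10 q was 2.64 in both lists, so no weaker region is held. The number of reads behind each list is unknown.

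Coordinates are 1-based on mm9 (NCBIM37), on which 0 peaks ran past a chromosome end, and genes are those of GENCODE mouse vM1. Some 37 and 41 peaks on contigs absent from this reference counted in the list totals only. The members were the 5 paralogs with every peak whose summit lay in the body or within 100 kb. Also named were the genes with the nearest TSS, 9 cofactor genes, the SOXE and MiT/TFE families (Tfe3, Tfeb and Tfec matched through RefSeq synonyms), and the 3 genes with the smallest Euclidean distance over 2 counts and 2 log2 highest folds, leaving out genes whose window overlapped that of the paralog. Of the cofactor list 1 further gene, and of the member sequences 1, are not reported here. The paralogs and lists were chosen with earlier results of these data known. With 1 ChIP group no condition could be compared and no test was run. Values are given per replicate, as mean ± SD (n = 2) or beside all genes or peaks. Binomial intervals (95%) are exact, by Clopper-Pearson, and cover only counting error. They take peaks and sites as independent, which sites in the same peak are not.

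Alternatives varied the q-value, fold and list length, the window, the overlap, the proximal window and the consensus. Protein identity came from global alignment of translated coding sequences (BLOSUM62, gap penalties 10 and 0.5). RefSeq promoters (GRCm38.p6) were available for Tfap2a, Tfap2b, Tfap2d and Tfap2e and were placed on mm9 by exact match. Computations used Python 3.11.15, numpy 2.4.6, scipy 1.17.1, pysam 0.24.0, Biopython 1.88, matplotlib 3.10.9 and samtools 1.23.1, and scripts were tested on simulated data.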

Additional observations from a re-analysis of the deposited data

How the results depend on the processing

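Of 50 alternative values for the family as a whole and for the density and site share of Tcfap2a, 31 stayed within the spread between replicates, or within 1.5 times for a count, and 19 did not. Of 102 alternative values for single genes, the peak counts of Tcfap2a among them, 73 stayed and 29 did not. For a value averaged over the replicates, leaving out a replicate stays within this spread by arithmetic. A gene with 0 peaks likewise stays at 0 under any stricter setting. These totals are therefore not a measure of stability. The upper 50% of each list by enrichment left 5 and 6 member peaks in replicates 1 and 2, of which 5 and 5 overlapped the other list, and 13.8 summits per Mb at Tcfap2a. A window of 50 kb left 4 and 9 peaks and 16.9 summits per Mb at Tcfap2a, 200 kb gave 14.3 per Mb, and gene bodies alone held 0 and 1 peak. With 1 kb to each side of a TSS, 1 paralog had a proximal peak in place of 2, and leaving out a replicate gave 1 to 2, since Tcfap2b rested on replicate 2. GCCNNNGGC left 0 and 2 member peaks with a site, and 100 bp to each side gave 5 in replicate 1. The shorter core CCNNNGG, chosen after seeing the data, was in 7 member peaks of replicate 1 and 11 of replicate 2, beside 70.9% and 73.9% of the lists. The share of Tcfap2a sites inside peaks was 3.99% as reported (mean of the replicates), 6.48% for GCCNNNGGC and 1.44% within 50 bp of a summit. These settings count other peaks, bases or matches by construction. Lists of the same length took replicate 2 from 14 to 10 member peaks, with 5 at Tcfap2a, 0 at Tcfap2b and 1 at Tcfap2d. A -log10 q of at least 5 left 8 and 13. Reciprocal overlap and summits within 100 bp left the overlap counts as reported. Added RefSeq starts (chosen after seeing the data) left the proximal count as reported, but added starts cannot remove a proximal peak. The Tcfap2b summits lay at -6132, -5663 and 1195 bp from the RefSeq start of that gene, outside the proximal window. Leaving out a replicate gave Tcfap2a 22.9 to 27.5 summits per Mb. No paired analysis was possible because only the ChIP group has replicates. Depth was unknown, so a peak absent from a list was not detected there, which does not show that the site was unbound.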

Other observations

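Within 1 Mb of the gene body Tcfap2b and Tcfap2d each had 4 summits in replicate 1 and 8 in replicate 2, of which 3 in replicate 1 were shared. These genes are 42567 bp apart, so their 1 Mb windows largely overlap and the counts are not independent. Tcfap2a had 28 and 27 within 1 Mb, Tcfap2c had 17 and 23, and Tcfap2e had 20 and 20. Counts for all genes at 1 Mb are not given. Among the 5 paralogs, Tcfap2b and Tcfap2d were the lowest at both scales in replicate 1. Both lie in a stretch of chromosome 1 where the 100 kb window held 2 protein-coding genes, the same number as at Tcfap2a, against 4 at Tcfap2c and Tcfap2e.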
